A study of Mus musculus with 4 samples.

Results

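The genes described are 10 vascular growth factor and Notch signalling genes, taken by name from the 32285 features of 4 single-cell RNA libraries of mouse colon. They are the ligand genes Vegfa, Pdgfb, Angpt2 and Jag1 and the receptor genes Flt1, Kdr, Flt4, Tek, Pdgfrb and Notch3. All 10 had UMIs in the endothelial-like cells of every library. Cells were kept with at least 200 detected genes and at most 10% of UMIs (unique molecular identifiers, each standing for 1 captured RNA molecule) from mitochondrial genes. The study compared mice lacking Csf2, the gene of the cytokine GM-CSF, with Csf2-positive mice at steady state, in solitary isolated lymphoid tissues (SILT, small lymphoid follicles of the gut wall) and in the colon lamina propria. The 4 groups were Csf2-/- SILT, Csf2+/+ SILT, Csf2-/- lamina propria and Csf2+/+ lamina propria, called knockout and wild-type below. Knockout and wild-type mice all carried 1 CX3CR1-GFP allele and 1 CCR2-RFP allele, so no group was without reporters. Cells were enriched by CD11b selection, and the design text gives 5 mice without saying how they were spread over the libraries or pooled; ages are not given in the sources used here. Each group was 1 library, so no difference between groups has a replicate check and no p-value is given. Intervals are exact at 95% and cover counting error only, and they are narrower than the spread between mice would be.

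Vascular endothelial growth factor A, the product of Vegfa, acts on endothelial cells through the signalling receptor KDR and is bound as well by FLT1, which in part acts as a decoy, while FLT4 is the receptor for VEGF-C and VEGF-D and is best known from lymphatic vessels. PDGF-B, the product of Pdgfb, is released by endothelial cells and draws pericytes, which carry PDGFRB, onto the vessel wall; angiopoietin 2, the product of Angpt2, binds the endothelial receptor TEK and competes with angiopoietin 1. The Notch ligand JAG1 activates receptors on neighbouring cells, and NOTCH3 is the Notch receptor of pericytes and vascular smooth muscle.

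In GRCm38 the ligand genes lie at chr17:46016993-46032369 (Vegfa), chr15:79995874-80014977 (Pdgfb), chr8:18690263-18741562 (Angpt2) and chr2:137081456-137116644 (Jag1). Among the receptor genes, Flt1 and Kdr lie on the minus strand of chromosome 5, at chr5:147561604-147726011 and chr5:75932827-75978458. Flt4 lies at chr11:49609263-49652739, Tek at chr4:94739289-94874976 and Notch3 at chr17:32120820-32166852. RefSeq promoter sequence on GRCm38.p6 was at hand for 7 of the 10 genes, and Pdgfb, Pdgfrb and Angpt2 were not in that table. The 4 stretches printed next are the 250 bases before the start of receptor genes whose levels separate endothelial-like from pericyte-like cells in the values that follow, in the direction of transcription. They are chr5:75978456-75978705 for Kdr (minus strand), chr5:147726012-147726261 for Flt1 (minus strand), chr4:94739039-94739288 for Tek (plus strand) and chr17:32166891-32167140 for Notch3 (minus strand). Capitals mark matches to the motifs searched.
Kdr: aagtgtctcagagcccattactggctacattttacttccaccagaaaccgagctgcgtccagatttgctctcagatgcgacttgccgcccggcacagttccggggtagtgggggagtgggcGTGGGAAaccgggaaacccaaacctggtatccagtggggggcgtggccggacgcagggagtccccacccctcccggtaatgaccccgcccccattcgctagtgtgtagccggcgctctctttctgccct
Flt1: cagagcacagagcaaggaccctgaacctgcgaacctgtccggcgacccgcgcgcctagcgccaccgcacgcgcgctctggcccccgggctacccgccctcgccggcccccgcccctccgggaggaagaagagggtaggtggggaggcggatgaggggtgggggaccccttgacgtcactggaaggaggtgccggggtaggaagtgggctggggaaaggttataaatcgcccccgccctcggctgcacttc
Tek: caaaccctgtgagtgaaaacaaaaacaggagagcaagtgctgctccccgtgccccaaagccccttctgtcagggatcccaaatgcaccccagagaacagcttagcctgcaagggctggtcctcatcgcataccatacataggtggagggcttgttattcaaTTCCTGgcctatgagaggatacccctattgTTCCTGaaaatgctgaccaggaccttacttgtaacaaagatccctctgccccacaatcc
Notch3: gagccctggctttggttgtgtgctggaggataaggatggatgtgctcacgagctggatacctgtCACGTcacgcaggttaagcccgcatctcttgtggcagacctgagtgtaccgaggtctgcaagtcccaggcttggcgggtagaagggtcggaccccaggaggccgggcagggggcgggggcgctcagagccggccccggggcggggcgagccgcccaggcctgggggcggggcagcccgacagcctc
Both strands were searched for 4 motifs. GTGGGAA is bound by the Notch cofactor RBPJ. ACGTG is the core of the hypoxia response element. CAGGAA is a core that factors of the ETS family bind. AGATAA is a motif of the GATA factor family. Of 32851 mouse promoters of the same length, 5.42% held GTGGGAA, 16.6% ACGTG, 25.7% CAGGAA and 9.99% AGATAA. The Kdr window held GTGGGAA on the printed strand, the Tek window held 2 matches to CAGGAA on the opposite strand, the Notch3 window held 1 match to ACGTG on the opposite strand, and the Flt1 window held none of the 4. These matches describe letters and do not show that a factor binds there.

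The libraries held 2368 knockout SILT cells, 7578 wild-type SILT cells, 1967 knockout lamina propria cells and 4439 wild-type lamina propria cells, with median UMIs per cell between 5816.5 and 9961. Total UMIs per library, over all barcodes before filtering, were between 19225644 and 67656927. Pairs of libraries shared 2 to 14 cell barcodes. Csf2 had 0 UMIs in knockout SILT, 24 UMIs in 11 cells of wild-type SILT (0.371 UMIs per 1000000 UMIs, CPM; interval 0.238 to 0.553), 0 UMIs in knockout lamina propria and 2 UMIs in wild-type lamina propria (0.0415 CPM). A count of 0 allows up to 0.145 CPM in knockout SILT and 0.160 CPM in knockout lamina propria, and since the labels do not describe the deletion, the 3′ tags counted may lie outside it. Among the sex-linked genes, Xist and Ddx3y had UMIs in each library, at 541, 283, 548 and 436 CPM for Xist and 47.6, 37.8, 39.7 and 44.4 CPM for Ddx3y in the endothelial-like cells of knockout SILT, wild-type SILT, knockout lamina propria and wild-type lamina propria.

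Clusters were named from marker genes, with the 10 genes left out of the clustering. Endothelial-like cells numbered 356 in knockout SILT, 1854 in wild-type SILT, 393 in knockout lamina propria and 1307 in wild-type lamina propria, and pericyte-like cells 50, 174, 149 and 259 in the same order of libraries. They do not carry the labelled marker: Itgam, the gene of CD11b, was between 1.17 and 4.91 CPM in endothelial-like cells and between 0 and 4.83 CPM in pericyte-like cells of the 4 libraries, while macrophage-like cells had 278 to 408 CPM. A further cluster, numbered 3, had both endothelial and pericyte genes and is kept apart without a name. It held 155, 402, 211 and 497 cells in the same order, and between 98.0% and 100% of them had at least 3 UMIs of each marker set. That share was 9.67% to 23.6% among endothelial-like cells and 1.34% to 10% among pericyte-like cells. Cells of cluster 3 had median UMIs of 10314 to 13946, against 5038 to 6406.5 in endothelial-like cells. The endothelial-like cells include a cluster of low UMI count, and in cluster 0, their largest, the medians were 6253 to 10021. Whether barcodes of cluster 3 hold more than 1 cell was not tested. Below, a difference is called where the ratio of CPM passed 1.5-fold with at least 30 UMIs over both libraries; this is a rule of size, not a test.

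The VEGF receptors Flt1 and Kdr marked the endothelial-like cells in every library. Flt1 was at 2707 CPM (interval 2645 to 2770) in knockout SILT, 2471 (2443 to 2500) in wild-type SILT, 2836 (2772 to 2902) in knockout lamina propria and 3561 (3522 to 3601) in wild-type lamina propria. Kdr was at 1446 CPM (1401 to 1493), 1600 (1577 to 1623), 1686 (1636 to 1737) and 1986 (1957 to 2016) in those libraries. Both receptors were highest in wild-type lamina propria, with intervals that did not overlap those of any other library. The make-up of the class differed as well: cluster 4, of low UMI count, held 21.1%, 22.4%, 36.6% and 42.5% of endothelial-like cells in the same order. With all endothelial-like cells clustered on their own, 1 subcluster, with a median of 11903 UMIs, held 7.58%, 0.593%, 5.60% and 20.9%. The largest subcluster held 13.8%, 31.7%, 0.763% and 1.53%. Its leading genes included Jchain, Igkc and Igha, which also led plasma cells, and Mptx1, Sycn and Lgals4, which also led epithelial cells. The part of RNA from those cells in the endothelial values was not tested. Within cluster 0, the largest, Flt1 was at 2956, 2790, 3264 and 3969 CPM and Kdr at 1569, 1649, 1937 and 2166 CPM, again highest in wild-type lamina propria. Cells were also thinned to 1000 UMIs each, which leaves out shallower cells and kept 336 of 356, 1749 of 1854, 344 of 393 and 1126 of 1307 endothelial-like cells in the same order of libraries. Of the cells kept, 86.3%, 83.4%, 84.9% and 86.9% had a Flt1 UMI, and 60.4%, 60.4%, 63.1% and 69.4% had UMIs of both receptors. Unthinned, 94.1%, 94.1%, 90.1% and 88.6% had a Flt1 UMI. In B-like cells of wild-type SILT, which should lack Flt1, 6.57% had a UMI unthinned and 2.62% after thinning.

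Knockout and wild-type endothelial-like cells were close for both receptors in SILT and somewhat further apart in lamina propria. The knockout to wild-type ratio of Flt1 was 1.10 in SILT and 0.796 in lamina propria, and that of Kdr 0.904 and 0.849. The SILT to lamina propria ratio of Flt1 was 0.954 in knockout and 0.694 in wild-type mice, and that of Kdr 0.858 and 0.805. None of these passed 1.5-fold, although each interval excluded 1 as far as counting error goes.

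Flt4 and Tek, the receptors for VEGF-C and for the angiopoietins, were found in the same cells. Flt4 was at 73.1 CPM (63.2 to 84.1) in knockout SILT, 50.2 (46.2 to 54.4) in wild-type SILT, 74.3 (64.2 to 85.6) in knockout lamina propria and 74.4 (68.8 to 80.2) in wild-type lamina propria. The 3 others overlapped above wild-type SILT, with a knockout to wild-type ratio of 1.46 (1.23 to 1.72) in SILT. In macrophage-like, monocyte-like and pericyte-like cells Flt4 was at 0 in knockout SILT and at most 1.81 CPM in any library. Tek was at 281 CPM (261 to 302), 308 (298 to 318), 296 (275 to 318) and 355 (343 to 368) in endothelial-like cells of the 4 libraries in the same order, so only wild-type lamina propria stood clear of the others, and no comparison of Tek passed 1.5-fold.

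**Figure D1:**
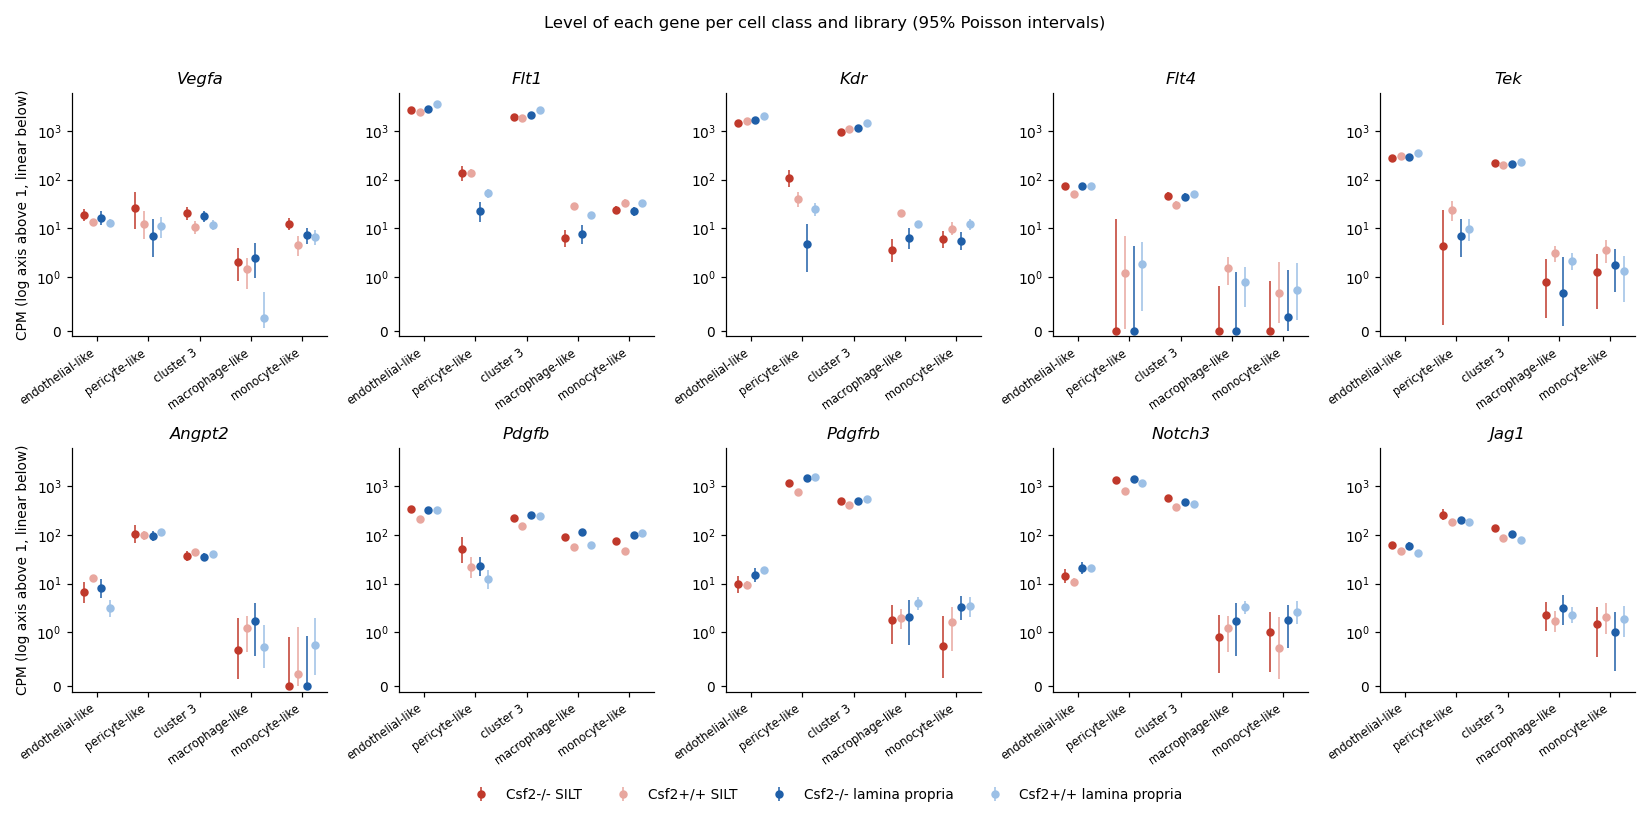
Level of each of the 10 genes in CPM (vertical axis, logarithmic above 1 and linear below) in endothelial-like, pericyte-like, cluster 3, macrophage-like and monocyte-like cells of each library; points are sums over all cells of a class and bars are 95% Poisson intervals. Flt1, Kdr, Flt4 and Tek are high in endothelial-like cells and cluster 3, Pdgfrb and Notch3 in pericyte-like cells and cluster 3, and Pdgfb is the 1 ligand at 47.4 CPM or more in macrophage-like and monocyte-like cells of every library.

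Among the ligands in endothelial-like cells, Pdgfb was higher in knockout than in wild-type SILT, and close between the genotypes in lamina propria. It was at 334 CPM (313 to 357) in knockout SILT, 216 (208 to 225) in wild-type SILT, 326 (304 to 349) in knockout lamina propria and 333 (321 to 345) in wild-type lamina propria. The low library was wild-type SILT, and the 3 others overlapped. The knockout to wild-type ratio was 1.54 (1.43 to 1.67) in SILT and 0.979 in lamina propria, and the ratio of wild-type SILT to wild-type lamina propria was 0.650 (0.616 to 0.685). The SILT ratio was 1.48 with TMM scaling, which rescales libraries by a trimmed mean of gene ratios, and 1.40 after thinning to 1000 UMIs, and so did not pass 1.5-fold with either. The same order held inside endothelial clusters made without Pdgfb: the knockout to wild-type ratio in SILT was 1.46 (1.34 to 1.60) in cluster 0, the largest, 1.76 (1.39 to 2.21) in cluster 14 and 1.57 (1.02 to 2.35) in cluster 4, against 1.01, 1.28 and 0.996 in lamina propria. The SILT and lamina propria ratios share no library, but their difference was not tested, as there is 1 library per group.

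Vegfa was between 0.245 and 25.7 CPM in endothelial-like, pericyte-like, cluster 3, macrophage-like and monocyte-like cells, so its ratios rest on few molecules. Endothelial-like cells had 50 UMIs in knockout SILT (18.8 CPM, 13.9 to 24.7), 155 in wild-type SILT (13.3 CPM, 11.3 to 15.5), 42 in knockout lamina propria (16.3 CPM, 11.8 to 22.1) and 114 in wild-type lamina propria (12.7 CPM, 10.5 to 15.3), and all 4 intervals overlapped. Fibroblast-like cells had 11, 58, 11 and 23 UMIs in the same order, at 50.3, 24.2, 78.9 and 69.0 CPM, from only 24, 217, 13 and 23 cells. Neutrophil-like cells had 25.7, 39.7, 61.7 and 20.4 CPM, from 4, 3, 5 and 2 UMIs in 37, 24, 27 and 16 cells. Monocyte-like cells of knockout SILT had 12.5 CPM (50 UMIs), against 4.45 CPM (19 UMIs) in wild-type SILT, a ratio of 2.81 (1.63 to 5.04), where 12.3% of the 9504 genes tested in these cells were called higher. Knockout and wild-type lamina propria monocytes had 7.12 and 6.63 CPM, a ratio of 1.07. Within the 2 monocyte clusters, the SILT ratio was 2.41 (1.17 to 5.27) in cluster 2 and 3.21 (1.35 to 8.79) in cluster 10, which was led by the early monocyte genes Chil3 and Hp. Macrophage-like cells had at most 14 Vegfa UMIs in any library.

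Angpt2 had its highest level in pericyte-like cells, at 107 CPM (69.3 to 158) in knockout SILT, 99.4 (78.9 to 123) in wild-type SILT, 95.7 (76.1 to 119) in knockout lamina propria and 113 (97.2 to 130) in wild-type lamina propria pericyte-like cells, all overlapping. In endothelial-like cells it was rare, and here the libraries parted: 6.75 CPM (18 UMIs) in knockout SILT, 12.9 CPM (151 UMIs) in wild-type SILT, 8.17 CPM (21 UMIs) in knockout lamina propria and 3.12 CPM (28 UMIs) in wild-type lamina propria. The knockout to wild-type ratio was 0.522 (0.301 to 0.853) in SILT and 2.62 (1.41 to 4.78) in lamina propria, so the 2 tissues had opposite directions. In wild-type mice SILT exceeded lamina propria 4.14-fold (2.76 to 6.45).

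A single endothelial cluster held most of the endothelial Angpt2 UMIs of wild-type SILT. Cluster 15, led by Apln, the gene of the peptide apelin that marks sprouting tip cells, together with Enpp6 and Car4, held 12 cells of knockout SILT, 227 of wild-type SILT, 3 of knockout lamina propria and 11 of wild-type lamina propria, or 3.37%, 12.2%, 0.763% and 0.842% of the endothelial-like cells. It contained 100 of the 151 Angpt2 UMIs of wild-type SILT, at 44.2 CPM (36.0 to 53.8) in that cluster. Without it, the knockout to wild-type ratio in SILT was 0.877 (0.425 to 1.67) and no longer called, the wild-type SILT to lamina propria ratio was 1.77, and the lamina propria knockout to wild-type ratio stayed at 2.58. Nearly all of its cells were in 1 library. With 1 library per group, a feature of the library and one of the tissue cannot be told apart.

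Jag1, the Notch ligand, was shared between endothelial-like and pericyte-like cells. In pericyte-like cells it was at 261 CPM (200 to 335) in knockout SILT, 180 (152 to 212) in wild-type SILT, 201 (172 to 233) in knockout lamina propria and 183 (163 to 205) in wild-type lamina propria. In endothelial-like cells it was at 61.1 (52.1 to 71.3), 45.7 (41.9 to 49.8), 59.9 (50.8 to 70.2) and 42.3 CPM (38.1 to 46.7) in the same order. Knockout exceeded wild-type endothelial-like cells in both tissues, by 1.34-fold in SILT and 1.42-fold (1.17 to 1.71) in lamina propria, with intervals that did not overlap and neither ratio past 1.5-fold. The make-up of the class differed beside this: cluster 14, an endothelial cluster with arterial genes and the most Jag1, held 12.4%, 9.01%, 10.4% and 4.13% of endothelial-like cells in the same order of libraries. Without cluster 14 the knockout to wild-type ratio was 1.24 (0.987 to 1.54) in SILT and 1.22 (0.975 to 1.51) in lamina propria, so both intervals included 1. Within cluster 0 it was 1.52 (1.19 to 1.94) in SILT and 1.21 (0.933 to 1.55) in lamina propria.

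Ligand and receptor genes also differed between endothelial clusters. Cluster 14 had the arterial genes Gja5, Sox17 and Bmx among its leading genes, cluster 22 the venular genes Ackr1, Selp and Madcam1, and cluster 4 cells of low UMI count. Over all libraries Jag1 was at 156 CPM (138 to 175) in cluster 14, against 59.4 in cluster 22, 38.0 in cluster 0, 38.6 in cluster 15 and 38.9 in cluster 4. Cluster 22 had less of the VEGF receptors than cluster 0, with Flt1 at 906, Kdr at 327 and Flt4 at 17.7 CPM, against 3328, 1877 and 69.9 CPM. The ligand Pdgfb was lower there too, at 62.9 CPM, against 317 CPM in cluster 0. Tek was an exception, at 443 CPM in cluster 22 and 331 in cluster 0. Kdr was highest in cluster 15, at 2343 CPM, where Flt1 was at 2438.

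**Figure D2:**
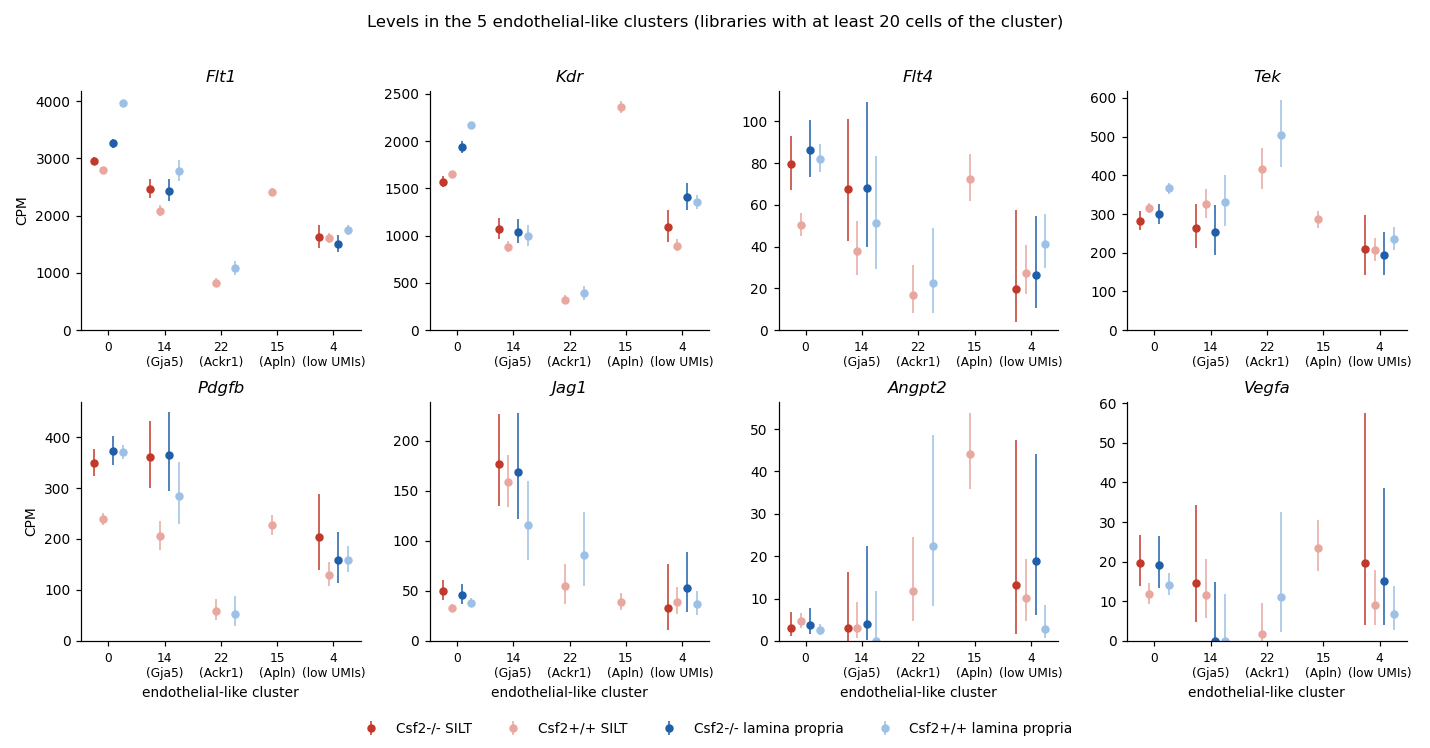
Levels of 8 of the genes in CPM (vertical axes, linear from 0) in the 5 endothelial-like clusters (horizontal axes), 1 point per library with at least 20 cells of the cluster and 95% Poisson intervals. Jag1 is highest in cluster 14, Flt1, Kdr and Pdgfb are lowest in cluster 22, and Angpt2 is at 44.2 CPM in cluster 15, which is shown for wild-type SILT alone.

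The small amounts of Pdgfrb and Notch3 in the endothelial class were unevenly spread. Pdgfrb was at 9.75, 9.59, 15.2 and 19.3 CPM and Notch3 at 14.6, 10.8, 21.4 and 20.8 CPM in knockout SILT, wild-type SILT, knockout lamina propria and wild-type lamina propria. Over all libraries, clusters 4 and 22 had 76.5 and 64.7 CPM of Pdgfrb, against 4.46 in cluster 0, and 85.1 and 94.0 CPM of Notch3, against 4.52. The summed level of the 14 pericyte markers in endothelial-like cells was 1703, 1184, 1503 and 1292 CPM in that order of libraries, with none at 0; their part in the Pdgfrb and Notch3 values was not tested.

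Of the 10 genes in endothelial-like cells, 1 was called higher and 1 lower in knockout than in wild-type SILT (Pdgfb and Angpt2), where 18.8% of 11282 genes were called either way, 11.8% higher and 6.97% lower. That is about the share among all genes. In lamina propria 1 of 10 was called (Angpt2, higher in the knockout), where 13.8% of genes were, 6.39% higher. Between tissues, 1 of 10 was called in knockout mice (Pdgfrb, at a ratio of 0.642, interval 0.376 to 1.08, from 26 and 39 UMIs; log2 0.052 with stricter cell filters, and no gene called under 7 alternatives), where 7.99% of genes were, 3.37% lower, and 4 of 10 in wild-type mice, where 14.4% were, 6.8% higher and 7.56% lower. Those 4 were Angpt2, higher in SILT, and Pdgfb, Pdgfrb (ratio 0.498) and Notch3 (ratio 0.518), lower in SILT. The Notch3 direction did not hold with stricter cell filters (log2 0.065) or with each library clustered alone (0.031). The median log2 ratio of the 10 genes was 0.27 for knockout over wild-type SILT, beside 0.06 over all genes tested, and -0.02 beside 0.02 for lamina propria. It was -0.07 beside 0.04 for knockout SILT over knockout lamina propria and -0.42 beside -0.04 for wild-type SILT over wild-type lamina propria. The comparisons share libraries, so wild-type SILT enters both the first and the last.

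Pericyte-like cells had the highest Pdgfrb and Notch3 of the vascular and myeloid classes, and neither gene was used to cluster or name them. Pdgfrb was at 1160 CPM (1026 to 1307) in knockout SILT, 765 (707 to 828) in wild-type SILT, 1486 (1405 to 1569) in knockout lamina propria and 1579 (1519 to 1640) in wild-type lamina propria. Notch3 was at 1361 CPM (1216 to 1519), 781 (722 to 844), 1381 (1303 to 1461) and 1191 (1139 to 1245) in the same order. Wild-type SILT was the lowest library for both receptors. After thinning to 1000 UMIs, which kept 48, 163, 144 and 242 pericyte-like cells, 77.1%, 50.3%, 79.2% and 71.1% of them had a Pdgfrb UMI and 77.1%, 54.0%, 75.0% and 68.2% a Notch3 UMI; unthinned, 96.0%, 89.1%, 98.7% and 94.6% had a Pdgfrb UMI. The B-like cells of wild-type SILT had 0.692% for Pdgfrb unthinned, at a median of 3305.5 UMIs per cell, against 3980.5 in pericyte-like cells of that library.

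In SILT the knockout to wild-type ratio was 1.52 (1.31 to 1.75) for Pdgfrb and 1.74 (1.52 to 2.0) for Notch3, where 27.4% of 5508 genes tested in these cells were called either way and 14.1% higher. In lamina propria the ratios were 0.941 and 1.16, where 17.1% of genes were called, and between the tissues of knockout mice 0.781 and 0.986, where 24.3% were. Wild-type SILT had 0.485 times (0.444 to 0.529) the Pdgfrb and 0.656 times (0.599 to 0.718) the Notch3 of wild-type lamina propria, where 34.3% of genes were called. Jag1 in these cells was not called in any comparison, at 1.45 (1.06 to 1.96) for knockout over wild-type SILT and 1.09 in lamina propria, and neither was Angpt2, at 1.08 and 0.848.

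Other gene lists also differed between the libraries in these cells, not always along with Pdgfrb and Notch3. The 14 pericyte markers summed to 19777 CPM in knockout SILT, 15535 in wild-type SILT, 21958 in knockout lamina propria and 20430 in wild-type lamina propria pericyte-like cells, so their sum too was lowest in wild-type SILT. The 11 smooth muscle markers summed to 6275, 8607, 4347 and 4268 CPM, highest in wild-type SILT, with 1 marker at 0 in knockout lamina propria and none in the others. Of 15 dissociation and heat-shock genes, 6 were called lower in knockout than in wild-type SILT pericyte-like cells, with a median log2 ratio of -0.40, where 27.4% of genes were called either way. In lamina propria 5 of the 15 were called higher in the knockout and none lower (median 0.26), where 17.1% of genes were called. For knockout SILT over knockout lamina propria 8 were lower and none higher (median -0.97), where 24.3% of genes were called and the Notch3 ratio was 0.986, and in wild-type mice 2 were higher and 1 lower in SILT. The part of these in the Pdgfrb and Notch3 ratios was not tested. With 50 cells, knockout SILT was the smallest library of this class.

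Endothelial receptors in pericyte-like cells were low and uneven. Flt1 was at 137, 139, 22.2 and 53.1 CPM and Kdr at 107, 39.3, 4.67 and 24.7 CPM in knockout SILT, wild-type SILT, knockout lamina propria and wild-type lamina propria. Of the 25 Kdr UMIs in knockout SILT pericyte-like cells, 22 came from 1 cell. The 19 blood endothelial markers summed to 2153, 2040, 798 and 1059 CPM in these cells, high in the same libraries as Flt1, with 2 at 0 in knockout lamina propria.

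Cluster 3, with both marker sets, gave similar directions for the pericyte receptor and the Notch ligand in SILT. Notch3 was at 575, 367, 484 and 426 CPM in the 4 libraries in the same order, Jag1 at 137, 85.2, 103 and 78.4 CPM, Pdgfrb at 510, 410, 496 and 555 CPM, and Pdgfb at 226, 152, 255 and 241 CPM. The knockout to wild-type ratio in SILT was 1.57 (1.45 to 1.69) for Notch3 and 1.60 (1.37 to 1.88) for Jag1, both called, where 18% of genes were called and 11.6% higher. Flt4 (ratio 1.51) and Vegfa (ratio 1.94) were called higher as well, and Pdgfb, at 1.48, fell just short. Of the 4 libraries, wild-type SILT was again lowest for Notch3, Pdgfrb and Pdgfb.

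**Figure D3:**
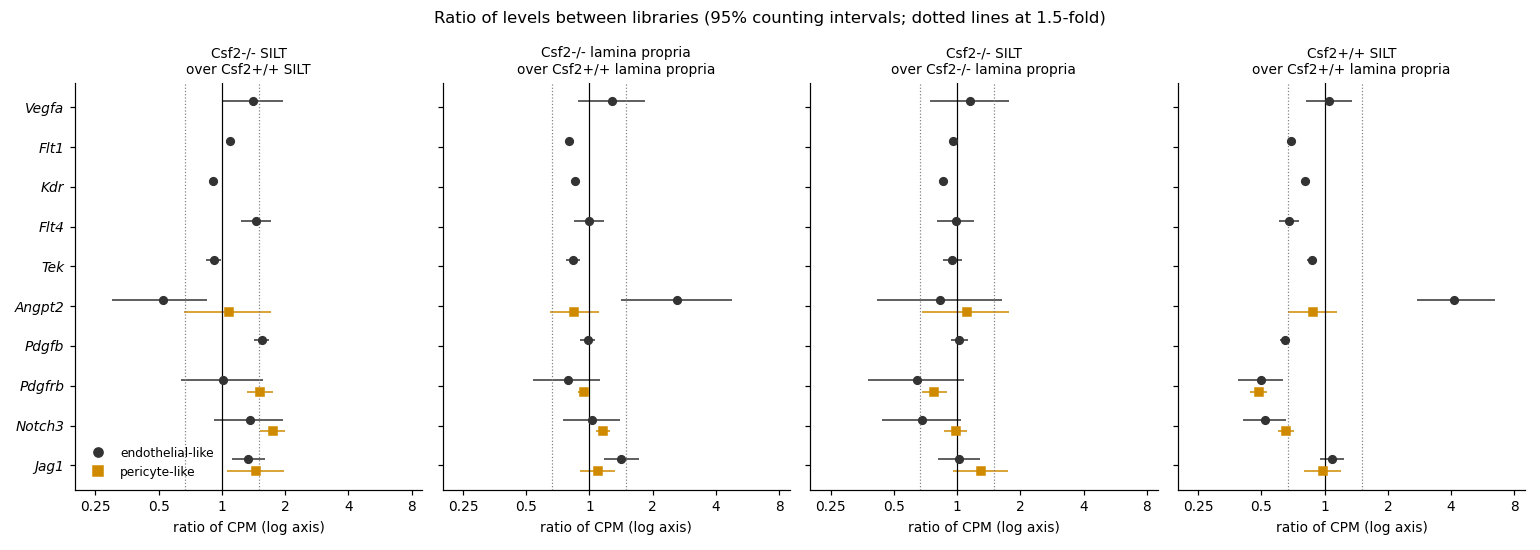
Ratios of CPM between libraries (horizontal axes, logarithmic) for the 10 genes in endothelial-like cells (dark circles) and, for Angpt2, Pdgfrb, Notch3 and Jag1, in pericyte-like cells (orange squares), with 95% counting intervals and dotted lines at 1.5-fold. Pdgfb at 1.54 in the first panel and 0.650 in the last, and Notch3 of pericyte-like cells at 1.74 and 0.656, lie on opposite sides of 1.

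Pdgfb was also found in myeloid cells. In macrophage-like cells it was at 92.2 CPM (83.4 to 102; 407 UMIs) in knockout SILT, 56.5 (51.8 to 61.4; 552 UMIs) in wild-type SILT, 112.5 (101 to 125; 322 UMIs) in knockout lamina propria and 62.6 (58.3 to 67.2; 766 UMIs) in wild-type lamina propria. After thinning to 1000 UMIs, which kept 389 of 396, 985 of 996, 285 of 290 and 942 of 944 macrophage-like cells, 10.3%, 4.57%, 8.07% and 5.41% of them had a Pdgfb UMI, and unthinned 46.0%, 31.1%, 46.9% and 38.3%. B-like cells of wild-type SILT, which should lack it, had 2.08% unthinned and 0.349% after thinning, at a median of 3305.5 UMIs per cell, against 8811 in macrophage-like cells of that library. Both knockout libraries lay above both wild-type libraries. The knockout to wild-type ratio was 1.63 (1.43 to 1.86) in SILT, where 8.81% of genes were called higher and 14.7% either way, and 1.80 (1.57 to 2.05) in lamina propria, where 6.97% were called higher and 18.7% either way.

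Beside the macrophage ratios, both the Pdgfb levels within clusters and the make-up of the class are given here. The part of each in the ratios was not tested. Cluster 7, led by Mmp13 and H2-M2, had more Pdgfb than cluster 1, led by Lyve1, Folr2 and Cd163, in every library: 123 against 41.9 CPM in knockout SILT, 90.2 against 26.6 in wild-type SILT, 189 against 62.4 in knockout lamina propria and 151 against 49.9 in wild-type lamina propria. Cluster 7 made up 50% of macrophage-like cells in knockout SILT and 34.0% in wild-type SILT, and 30.7% in knockout and 10.2% in wild-type lamina propria. Within cluster 7 the knockout to wild-type ratio was 1.36 (1.18 to 1.57) in SILT and 1.25 (1.04 to 1.5) in lamina propria. Within cluster 1 it was 1.57 (1.16 to 2.12) in SILT and 1.25 (0.993 to 1.56) in lamina propria, so that of these 4 ratios, 1 passed 1.5-fold. The 19 blood endothelial markers summed to 720 CPM in knockout SILT, 1145 in wild-type SILT, 992 in knockout lamina propria and 1645 in wild-type lamina propria macrophage-like cells, lower in the knockout in both tissues, where Pdgfb was higher. The part of RNA from endothelial cells in the macrophage Pdgfb values was not tested.

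Monocyte-like cells had Pdgfb at 76.5 CPM (68.2 to 85.6) in knockout SILT, 47.4 (41.1 to 54.4) in wild-type SILT, 97.9 (88.4 to 108) in knockout lamina propria and 107.5 (98.9 to 117) in wild-type lamina propria. The knockout to wild-type ratio was 1.62 (1.35 to 1.94) in SILT, where 17.8% of genes were called and 12.3% higher, and 0.910 in lamina propria. It was 1.53 (1.25 to 1.87) in cluster 2 and 2.50 (1.59 to 4.03) in cluster 10 in SILT. Cells resembling type 2 conventional dendritic cells had 55.5, 26.3, 52.6 and 64.0 CPM in the same order of libraries, with a knockout to wild-type ratio in SILT of 2.11 (1.54 to 2.91), where 20.4% of genes were called and 11.8% higher, and a lamina propria ratio of 0.822. In each of 5 cell groups, the endothelial-like, cluster 3, macrophage-like, monocyte-like and dendritic ones, wild-type SILT was the library with the least Pdgfb by CPM, though in macrophage-like cells its log2 ratio to wild-type lamina propria, -0.15 by CPM, was 0.071 with TMM scaling and 0.27 with each library clustered alone. The same wild-type SILT library enters all 5 groups, so they do not repeat each other. Other classes, with few Pdgfb UMIs, had another order. Pericyte-like cells were lowest in wild-type lamina propria, at 51.4, 22.1, 23.3 and 12.7 CPM in the same order of libraries. Fibroblast-like and neutrophil-like cells were lowest in knockout lamina propria, at 0 and 12.3 CPM. TMM scaling moved all log2 ratios of wild-type SILT to wild-type lamina propria by 0.22 in macrophage-like and 0.25 in monocyte-like cells. By total UMIs, endothelial-like cells held 37.6%, 56.2%, 31.8% and 44.4% of all Pdgfb UMIs in the 4 libraries, macrophage-like cells 17.2%, 12.3%, 12.2% and 11.4%, and monocyte-like cells 12.9%, 4.49%, 14.6% and 8.43%, which depends on how many cells of each type were captured.

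**Figure D4:**
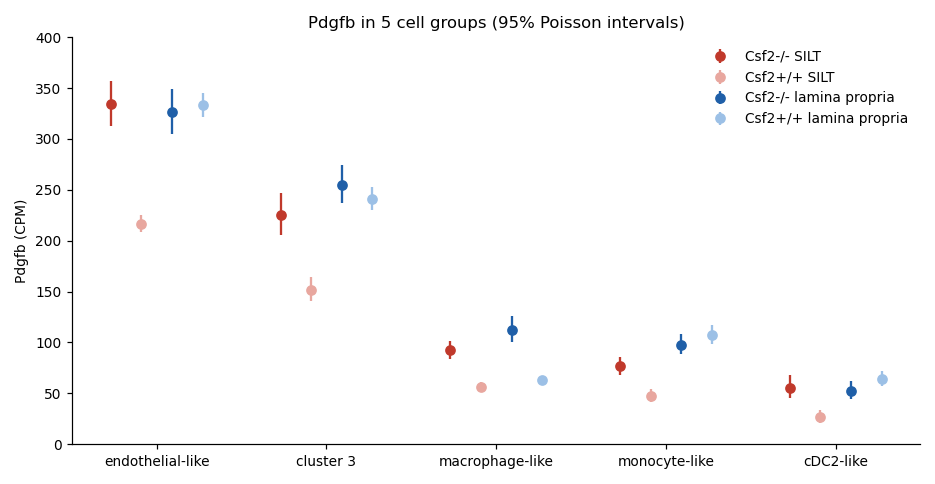
Pdgfb in CPM (vertical axis, from 0) in 5 cell groups (horizontal axis) of each library, with 95% Poisson intervals. Wild-type SILT is the lowest library in each of the 5 groups shown, at 216 CPM in endothelial-like cells and 56.5 CPM in macrophage-like cells, where TMM scaling puts it above wild-type lamina propria. Pericyte-like cells, lowest in wild-type lamina propria at 12.7 CPM, are not shown.

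Flt1 and Kdr were low in myeloid cells, and their ratio to each other differed between clusters. In macrophage-like cells Flt1 was at 6.34, 28.3, 7.69 and 18.5 CPM and Kdr at 3.62, 20.2, 6.29 and 11.9 CPM in knockout SILT, wild-type SILT, knockout lamina propria and wild-type lamina propria, and both were higher in the wild-type libraries. B-like cells of wild-type SILT had 17.6 CPM of Flt1 (12.5 to 23.9) and 6.58 CPM of Kdr (3.69 to 10.9), and their 19 blood endothelial markers summed to 295 CPM, against 1145 CPM in the macrophage-like cells of that library. Flt1 made up 63.6%, 58.3%, 55.0% and 60.8% of the Flt1 and Kdr UMIs of macrophage-like cells, and 65.2%, 60.7%, 62.7% and 64.2% in endothelial-like cells of the same libraries. The intervals of the macrophage shares covered the endothelial value in every library; the part of RNA from endothelial cells in these values was not tested. In monocyte cluster 10, Flt1 was at 40.6, 48.3, 37.2 and 68.9 CPM and made up 83.8% (72.9% to 91.6%) of the UMIs of both receptors in knockout SILT, 87.1% (77.0% to 93.9%) in wild-type SILT, 94.7% (82.3% to 99.4%) in knockout lamina propria and 80.3% (69.5% to 88.5%) in wild-type lamina propria. All 4 intervals lay above the endothelial share of their own library. Monocyte cluster 2 had values between, at 74.5% (60.4% to 85.7%), 71.3% (62.1% to 79.4%), 72.2% (60.4% to 82.1%) and 69.9% (62.3% to 76.9%). These intervals covered the endothelial share of their own library in all libraries but wild-type SILT. A share above the endothelial one was not limited to monocytes. In B-like cells of wild-type SILT it was 72.7% (59.0% to 83.9%), an interval that covered the endothelial value. In pericyte-like cells it was 56.1%, 77.9% (70.3% to 84.4%), 82.6% and 68.2% in the same order of libraries.

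**Figure D5:**
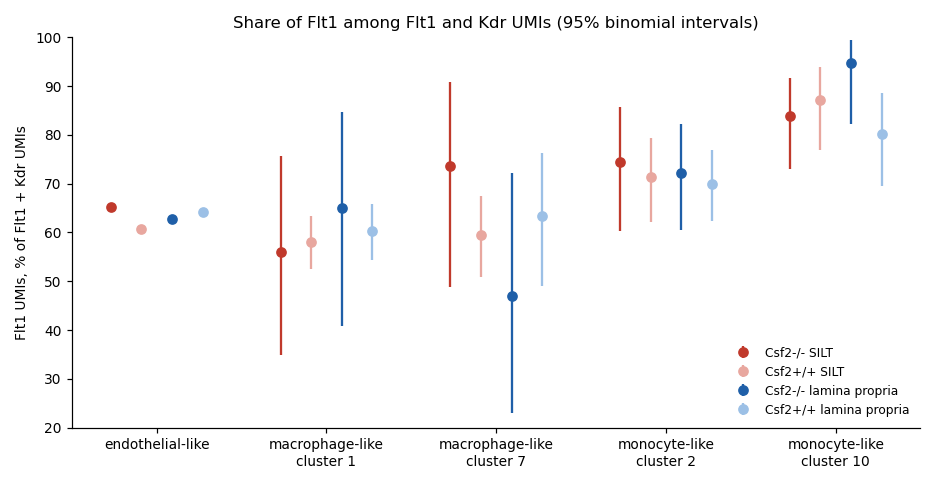
Flt1 UMIs as a percentage of Flt1 and Kdr UMIs together (vertical axis, drawn from 20% to 100%) in endothelial-like cells, 2 macrophage-like clusters and 2 monocyte-like clusters, 1 point per library with 95% binomial intervals. Monocyte cluster 10 lies at 80.3% to 94.7%, above the 60.7% to 65.2% of endothelial-like cells.

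The other genes of these pathways were counted in endothelial-like cells from 8 lists. For knockout over wild-type SILT, where 11.8% of all genes were called higher and 6.97% lower, 2 of 8 tested Notch receptors and ligands were called higher and none lower: Notch4, the endothelial Notch receptor, at 93.8 and 55.0 CPM (ratio 1.70, interval 1.47 to 1.98), and the ligand Jag2, at 123.8 and 79.7 CPM (1.55, 1.37 to 1.76). Of 13 genes that process or modify Notch, 3 were called higher, among them the sugar transferases Lfng (1.89) and Pofut1 (1.71), and of 9 nuclear factors and targets 1, the coactivator Maml1 (1.86). Tie1, the partner receptor of TEK, was at 358 CPM in knockout and 229 CPM in wild-type SILT (1.56, 1.45 to 1.68), while Angpt2 was the 1 gene of 3 tested in that list called lower. Of 5 PDGF ligand and receptor genes, Pdgfb was the 1 called. Among 8 VEGF ligands and receptors, Vegfb was called lower (0.595) and none higher. Of 10 VEGF-responsive genes, 3 were called higher, led by the transcription factor Egr3 (2.19), and 1 lower, Apln (0.407). Apln led cluster 15, which held 3.37% of endothelial-like cells in knockout and 12.2% in wild-type SILT. The part of that cluster in the Apln ratio was not tested. None of 14 hypoxia-response genes was called. The median log2 ratio was 0.43 for Notch receptors and ligands, 0.24 for the processing genes, 0.22 for the nuclear factors and 0.40 for the VEGF-responsive genes, beside 0.06 over all genes.

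In lamina propria, Lfng was again higher in the knockout (37.0 and 23.7 CPM, ratio 1.56), and Vegfc, a ligand of FLT4, was higher as well (36.6 and 22 CPM, 1.67). Rbpj, the DNA-binding partner of Notch, was called lower (44.4 and 69.5 CPM, 0.639), as was the prolyl hydroxylase gene Egln3 (0.582). Of 13 genes that process or modify Notch, and of 8 VEGF ligands and receptors, 1 each was called higher and none lower. Of 9 Notch nuclear factors and targets, 1 was higher and 1 lower. Of 8 Notch receptors and ligands, none was higher and 1 lower, Notch2 (0.545, 0.166 to 1.41). Over all genes 13.8% were called in that comparison. Plaur, the urokinase receptor gene, was higher (2.62), and 4 of 15 dissociation and heat-shock genes were called higher there, with a median log2 ratio of 0.40, where 6.39% of all genes were; the part of these in the other values was not tested. Notch4 and Maml1, higher in knockout SILT, were lower in wild-type SILT than in wild-type lamina propria (0.660 and 0.610), which is the same wild-type SILT library.

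Between tissues, 1 of 10 VEGF-responsive genes was called higher and 1 lower in knockout SILT than in knockout lamina propria, where 7.99% of genes were called either way, and 2 were higher and 1 lower in wild-type mice, where 14.4% were. Of the hypoxia-response genes, 2 of 13 tested were called higher in knockout and 3 of 15 in wild-type SILT and none lower, with median log2 ratios of 0.046 and 0.13. Apln was at 22.5 CPM in knockout SILT and 4.67 CPM in knockout lamina propria (ratio 4.82), and at 55.3 CPM in wild-type SILT and 6.24 CPM in wild-type lamina propria (8.86). Ankrd37 was higher in SILT than in lamina propria in knockout (2.35) and wild-type mice (2.48), and so was Egln3 (3.11 and 2.01). Apln and Ankrd37 were among the leading genes of cluster 15, which had 227 of its 253 cells in wild-type SILT. The part of that cluster in their ratios was not tested. Plaur was higher in wild-type SILT than in wild-type lamina propria (2.57). Esm1, an endothelial gene induced by VEGF, was lower in knockout SILT than in knockout lamina propria, at 174 and 363 CPM (0.479). Pfkfb3, a glycolysis regulator, was lower and Ldha, lactate dehydrogenase, higher in wild-type SILT than in wild-type lamina propria pericyte-like cells (0.299 and 1.62). The neuropilin genes Nrp1 and Nrp2, coreceptors for VEGF, were both lower in the same pericyte-like comparison (0.630 and 0.638), where 34.3% of genes were called. Of 6 VEGF ligand and receptor genes tested in it, 2 were called higher and 2 lower. Flt1 was higher (139 and 53.1 CPM), as was Kdr, which reversed under some settings. Of 10 hypoxia-response genes tested in it, 2 were higher and 1 lower.

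Genes whose levels ran most closely with the members were found over 71 sums of a class in a library, from 29 classes, by Pearson's r of log2(CPM + 1). Flt1 ran closest with Mmrn2 (r = 0.943), Kdr with Emcn (0.943), Flt4 with Myrip (0.905), Tek with Clec14a (0.917) and Pdgfb with Hip1 (0.829). Pdgfrb ran closest with Cspg4 (0.922), Notch3 with Higd1b (0.932) and Angpt2 with Aoc3 (0.928). Vegfa had no close partner, its best being Spry2 (0.676). The sums of 1 library share its depth and free RNA, so these are descriptions of where genes were found.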

How the data were processed

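Single-cell RNA libraries were made with 3′ version 2 chemistry per the labels' protocols; the submitters' processing notes name Cell Ranger 2.1.1 and mm10, while the header of the deposited matrices names Cell Ranger 6.0.0. The deposited values are UMI counts per gene and cell barcode, not normalized. Barcodes passed with 200 detected genes or more and a mitochondrial share up to 10%, and 10, 136, 7 and 52 doublets called by Scrublet at 0.8% per 1000 cells (0.421%, 1.76%, 0.355% and 1.16%) were removed from knockout SILT, wild-type SILT, knockout lamina propria and wild-type lamina propria. The 2000 most variable genes, without the 10 genes and the pathway lists, gave 30 principal components, 15 neighbours and Leiden clusters at resolution 1 (Scanpy 1.11.5, leidenalg 0.10.2, Python 3.11.15). A cluster was named from at least 3 raised markers; markers were fixed, while the scoring was settled on seeing the clusters. Levels are summed UMIs per 1000000 (CPM) with exact Poisson intervals, ratios have exact conditional intervals and shares Clopper-Pearson intervals (SciPy 1.17.1). Genes with at least 30 UMIs over both libraries and a ratio past 1.5-fold were called. The ratio step was run on simulated data. Those counts followed the Poisson model that the intervals assume, without spread between cells, mice or libraries. That run cannot show how the intervals cover such spread. TMM factors came from edgeR 4.0.16 in R 4.3.3; with 1 library per group, no edgeR test was possible. The 10 genes and the lists were chosen with earlier results of these data known. Other genes named are, per list and comparison, up to 2 with the strongest ratios, and per member its nearest pattern, which for Jag1 is not reported here; cluster-leading genes were named after their values were seen.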

Additional observations from a re-analysis of the deposited data

Results flagged for a closer look

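Angpt2 in endothelial-like cells had knockout to wild-type ratios in opposite directions in the 2 tissues, below 1 in SILT and above 1 in lamina propria, and the log2 ratio in SILT minus that in lamina propria was -2.33. The UMIs behind it were 18 in knockout SILT, 151 in wild-type SILT, 21 in knockout lamina propria and 28 in wild-type lamina propria, of which 100 in wild-type SILT lay in cluster 15. The difference was not tested, since each group is 1 library.

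Kdr in pericyte-like cells likewise had opposite directions, higher in knockout than wild-type SILT and lower in knockout than wild-type lamina propria, with a log2 ratio in SILT minus that in lamina propria of 3.85. Of the 25 UMIs in knockout SILT, 22 came from 1 cell, and without that cell the SILT log2 ratio was -1.31. This difference was not tested either.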

How the results depend on the processing

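No paired analysis was possible because each group is 1 library, and leaving out replicates was not possible for the same reason. Alternatives were run for chosen ratios, not for every called one. Flt1 in pericyte-like cells and Pdgfb in dendritic cells, for example, were left out. Of 300 alternative values for 28 called ratios, 289 kept their direction. Size held less well. Of alternative values for the ratios and counts taken as main results, 30 of 114 moved. Of those for other ratios and shares of cells, 302 of 1241 moved. A value moved if it left the main interval, or, for a count, changed more than 1.5-fold or to 0. Values in this paragraph are log2 ratios unless counts are named. Those that reversed were Pdgfrb in endothelial-like cells, knockout SILT over knockout lamina propria, with stricter cell filters (0.052); Notch3 in endothelial-like cells, wild-type SILT over lamina propria, with stricter filters (0.065) and with each library clustered alone (0.031); and Vegfa in cluster 3, knockout over wild-type lamina propria, after thinning (-0.46). Kdr in pericyte-like cells, knockout over wild-type SILT, reversed with stricter filters (-1.18), with doublets kept (-0.80), at resolution 2 (-0.14), as a mean over cells (-0.079) and without its highest cell (-1.31). For wild-type SILT over lamina propria it reversed at resolution 2 (-0.17) and with cells gated by markers (-0.77). Endothelial Pdgfb, knockout over wild-type SILT, was 0.74 with gated cells, and 0.49 after thinning and 0.56 with TMM, both under 1.5-fold. For the same libraries pericyte Notch3 was 1.04 with gated cells, and macrophage Pdgfb 0.91 at resolution 2, 1.01 with gated cells and 1.25 after thinning; macrophage Pdgfb in lamina propria was 0.50 with each library alone. Called genes among the 10 in endothelial-like cells, 2 for knockout over wild-type SILT, became 5 at resolution 2, 4 without cells with both marker sets, 1 with TMM and 0 at a fold of 2. In lamina propria 1 became 2 with stricter filters or gated cells, 3 as a mean over cells or without cells with both marker sets, 4 with each library alone and 0 at a minimum of 100 UMIs. For knockout SILT over lamina propria 1 became 0 with stricter filters, doublets kept, resolution 0.5, gated cells, without cells with both marker sets, at 100 UMIs and at a fold of 2. It became 2 with all variable genes, as a mean over cells, without cluster 15 and with TMM, and 3 with each library alone. For wild-type mice 4 became 2 at a fold of 2. The cause of these moves was not tested. Leaving out cells with both marker sets or cluster 15 was chosen after seeing the data. With each library clustered alone, knockout SILT had too few pericyte-like cells for a ratio. Depth limits endothelial Angpt2, which rests on 18 to 151 UMIs in a library, and Vegfa, with 42 to 155 in endothelial-like and 3 to 14 in macrophage-like cells.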
